A study of Mus musculus with 6 samples.

Results

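Excitation-contraction coupling is the step by which a nerve-driven electrical impulse at the surface of a muscle fibre becomes a release of calcium inside it. It takes place at the triad, where a transverse tubule of the surface membrane lies between terminal cisternae of the sarcoplasmic reticulum. In skeletal muscle the dihydropyridine receptor of the tubule senses the voltage and opens the ryanodine receptor of the reticulum through a mechanical link, and junctophilins hold both membranes together. H3K27ac, the acetylation of lysine 27 on histone H3, marks active promoters and enhancers.

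The H3K27ac peaks named for 8 triad genes were examined: Ryr1, Cacna1s, Cacnb1, Cacng1, Stac3, Jph1, Jph2 and Trdn. Members were every row of the peak lists whose nearest gene, as the authors annotated it, was one of the 8, at promoters and far from them. They came to 43 of 46988 peaks in the control list and 39 of 40721 peaks in the detrained list. The rule names genes by their function and uses no measured value.

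The libraries came from quadriceps, a mostly fast-twitch thigh muscle, of wild type C57BL/6 mice, which the study's methods give as male C57BL/6J. Control mice were sedentary, in individual cages without a wheel. Detrained mice had 4 weeks of voluntary wheel running from 8 weeks of age and rested for 72 hours, with no running, before the muscle was taken. Each group had 2 H3K27ac libraries, each from a single quadriceps of 1 animal, and 1 input library of unprecipitated chromatin, whose labels gave the strain as C57BL/7 in control and C57BL/8 in detrained mice. Labelled genotype, tissue and antibody were the same in both groups. Mice harvested directly after running were not analysed here, so these lists compare sedentary with rested mice only.

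The control libraries, named C2 and C3, held 22400894 and 21796628 tags, which are aligned reads, and the detrained libraries, named Ex1 and Ex2, held 20805019 and 22350779. The input held 10812470 tags in control and 21298438 in detrained mice. Of 8 muscle fibre markers, 7 had a peak in each list, with summed tags per 10000000 of 5525 and 6931 in the control libraries and 7128 and 6740 in the detrained libraries. Myh4 made up the higher detrained sums, with 79.2 pooled tags in control and 800.4 in detrained mice, since the control peak that overlapped its detrained start peak was assigned to Myhas. Without Myh4 the sums were 5450 and 6847 in control and 6314 and 5952 in detrained libraries. Tnnt3 had no peak assigned in either list. All 5 endothelial markers had peaks, with sums of 2924 and 3457 in control and 4154 and 3151 in detrained mice. All 3 fibroblast markers did as well, with sums of 1578 and 1557 in control and 1838 and 1913 in detrained mice. Of 4 leukocyte markers, 2 had a peak in the control list and 3 in the detrained list, with sums of 161.5 and 126.4 in control and 257.9 and 212.7 in detrained mice, and the 2 adipocyte and 2 cardiomyocyte markers had none. Satellite cell markers (2 of 2) summed to 178.9 and 173.2 in control and 227.4 and 246.2 in detrained mice, so the fibroblast, leukocyte and satellite cell sums were higher in both detrained libraries. Ptprc gave part of the leukocyte rise, with 0 control peaks and 2 detrained peaks of 53.5 tags. Neuron markers summed to 425.5 and 437.9 in control and 369.4 and 419.8 in detrained mice. Hepatocyte markers summed to 358.3 and 359.5 in control and 395.7 and 356.5 in detrained mice. Both thus exceeded the leukocyte and satellite cell sums, though their peaks and those of the Schwann cell list covered 0 starts. Schwann cell sums were at most 120.9. The part of these other cells in the results below was not tested. In whole muscle, fewer nuclei of a cell type and less acetylation per nucleus cannot be told apart.

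Promoter sequence is shown for the members that RefSeq's promoter table holds, because the H3K27ac peaks described below lay over it. The table (GRCm38.p6, the assembly of mm10) held 4 of the 8 genes, and Cacng1, Stac3, Jph1 and Trdn had no entry. Each line gives the 250 bases before a start site, 5′ to 3′ on the strand of the gene, with matches to the searched motifs in capitals.
Ryr1, minus strand, chr7:29125152-29125401: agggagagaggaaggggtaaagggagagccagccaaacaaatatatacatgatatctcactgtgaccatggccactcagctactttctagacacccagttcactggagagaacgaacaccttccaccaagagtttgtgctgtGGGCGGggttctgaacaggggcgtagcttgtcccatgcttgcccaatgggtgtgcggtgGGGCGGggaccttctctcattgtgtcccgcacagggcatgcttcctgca
Cacna1s, plus strand, chr1:136052561-136052810: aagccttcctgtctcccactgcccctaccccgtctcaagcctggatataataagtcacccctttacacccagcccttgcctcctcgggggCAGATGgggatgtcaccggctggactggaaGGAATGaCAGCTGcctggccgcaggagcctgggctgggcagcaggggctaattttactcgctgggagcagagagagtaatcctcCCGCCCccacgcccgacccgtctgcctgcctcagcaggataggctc
Cacnb1 outer start, minus strand, chr11:98022628-98022877: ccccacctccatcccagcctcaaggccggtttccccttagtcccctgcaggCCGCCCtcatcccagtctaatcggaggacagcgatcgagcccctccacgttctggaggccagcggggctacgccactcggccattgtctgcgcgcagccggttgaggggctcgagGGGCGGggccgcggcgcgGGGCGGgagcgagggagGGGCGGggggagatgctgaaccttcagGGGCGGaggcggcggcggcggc
Cacnb1 inner start, minus strand, chr11:98018373-98018622: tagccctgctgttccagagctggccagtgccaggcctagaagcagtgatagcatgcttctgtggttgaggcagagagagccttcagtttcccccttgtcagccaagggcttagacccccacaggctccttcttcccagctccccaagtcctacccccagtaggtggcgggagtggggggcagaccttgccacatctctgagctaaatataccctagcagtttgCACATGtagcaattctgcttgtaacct
Jph2, minus strand, chr2:163397994-163398243: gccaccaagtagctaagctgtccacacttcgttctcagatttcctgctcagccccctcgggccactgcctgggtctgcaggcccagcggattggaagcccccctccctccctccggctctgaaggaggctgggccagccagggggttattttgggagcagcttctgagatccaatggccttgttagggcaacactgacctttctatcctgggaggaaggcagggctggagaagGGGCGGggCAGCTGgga

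Both strands were searched for the E-box, spelled CANNTG, which myogenic factors bind. One form of the E-box, spelled CAGCTG, was also counted by itself, so every such match is an E-box too. The GC box, spelled GGGCGG, is bound by SP1. The MCAT site, spelled CATTCC, is bound by TEAD factors. The AP-1 site was spelled TGANTCA in this search. The site of oestrogen-related receptors (ERR) was spelled TCAAGGTCA in this search. Cacna1s held 2 E-boxes, one of them of that form, with an MCAT site a base away and a GC box nearer the start. Jph2 held this form of the E-box and a GC box within 20 bases of the start shown. From its second annotated start, whose window is not shown, the E-box lay at -29 to -24 and the GC box at -37 to -32. The outer Cacnb1 start held 5 GC boxes and no E-box, while the inner start, 4255 bp downstream, held 1 E-box and no GC box. Ryr1 held 2 GC boxes and no E-box. None of the 5 windows held the AP-1 or the ERR site in these letters. Among all 32851 promoter entries, windows of the same length held an E-box in 66.2%, its counted form in 13%, a GC box in 32.7% and an MCAT site in 12.6%. The AP-1 site stood in 6.75% and the ERR site in 0.387%. In both lists an H3K27ac peak named for the gene covered all 250 bases of each window.

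All 8 genes carried H3K27ac over every annotated RefSeq start site in both lists. Only 1 control peak (Stac3) and 2 detrained peaks (Stac3 and Cacnb1) had the authors' promoter annotation, which goes by the centre of a peak. The other peaks over a start were annotated as intronic, apart from the exonic control peak over the outer Cacnb1 start and the intergenic Jph1 peaks. By annotation 30 control and 26 detrained members were intronic, and 9 and 10 were intergenic. The member peaks covered 194.3 kb with 11068.5 pooled tags per 10000000 in control mice and 173.6 kb with 9498 in detrained mice, or 57.0 and 54.7 tags per kb. Median peak length was 3374 bp in control and 3128 bp in detrained members against 1568 bp and 1798 bp in the whole lists. The median of the members' log2 enrichment over input was 2.95 in control and 2.61 in detrained mice, where all peaks had 2.63 and 2.43. The peaks that covered a start held 50.02% of the members' tags in control and 48.3% in detrained mice.

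**Figure D1:**
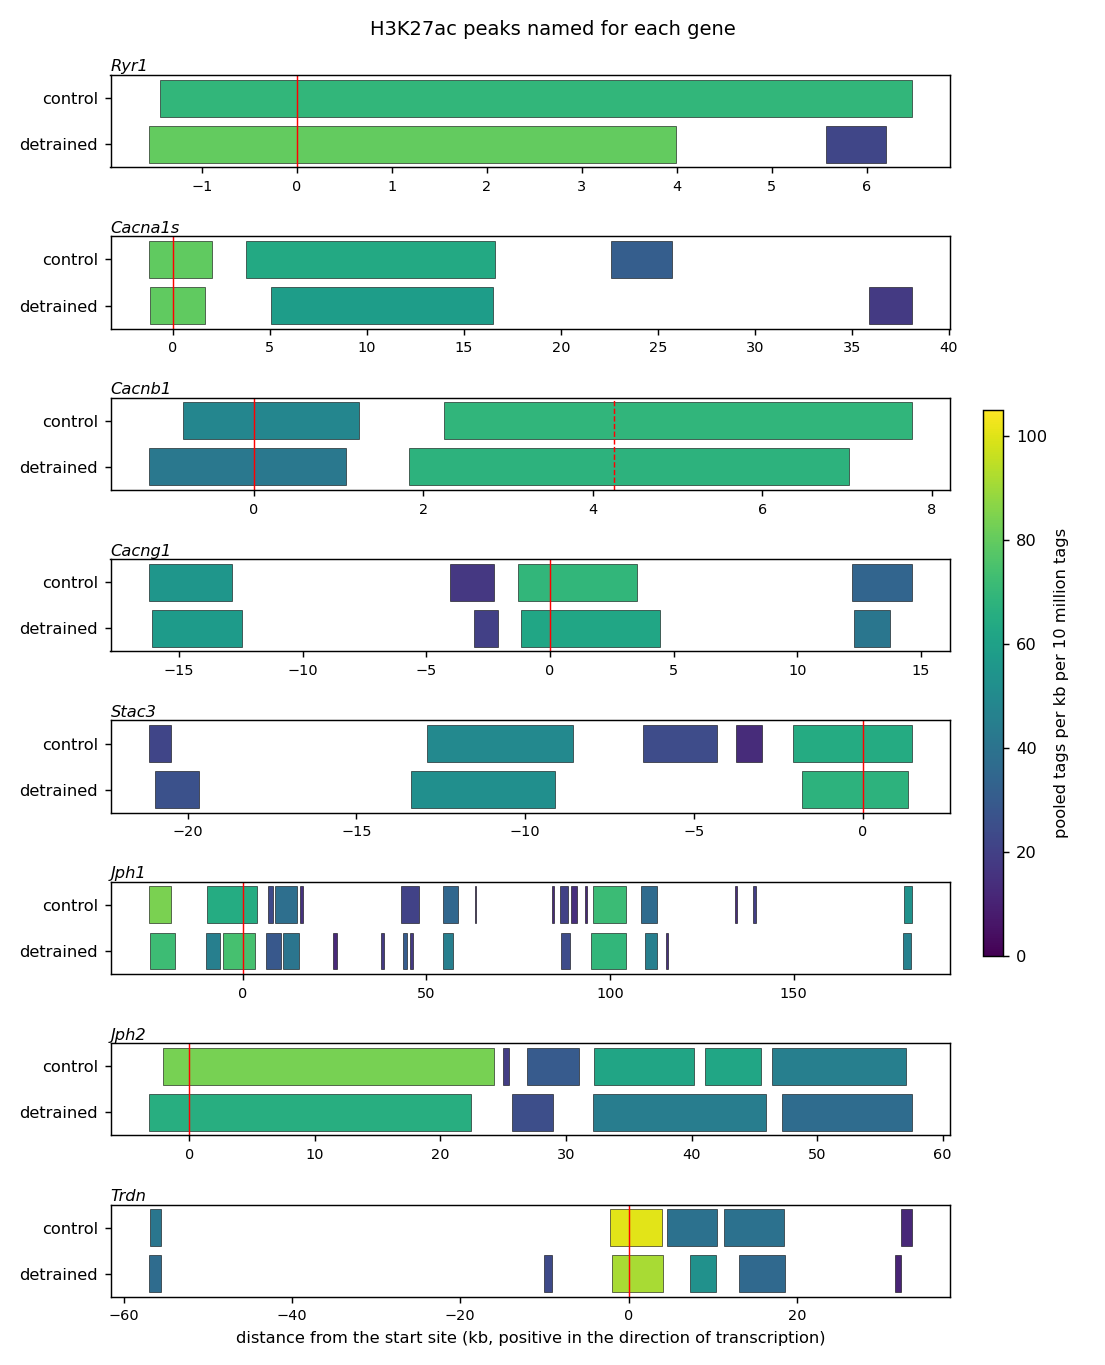
Every H3K27ac peak named for the 8 genes, with distance from the start site in kb on the x axis (red line, with the inner Cacnb1 start dashed) and the control and detrained lists as rows, coloured by pooled tags per kb per 10000000 tags. Ryr1 and Cacnb1 carried peaks at their starts, Jph1 had 17 control and 15 detrained peaks spread out to 181.1 kb, and at Jph2 peaks covered 84.2% of the gene body in control and 80.6% in detrained mice.

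The genes differed in how far acetylation reached, as the map of peaks by distance from the start shows. Ryr1 spans 121.8 kb of chromosome 7 and Trdn 396.2 kb of chromosome 10, yet peaks covered 5.34% and 5.21% of these gene bodies in control mice, all near the 5′ end. Jph2, 61.8 kb on chromosome 2, was covered over 84.2% of its body. Start peaks held 100% of the control tags of Ryr1 and Cacnb1 and 61.5% of those of Jph2. They held 22.2% at Cacna1s and 29.6% at Jph1, where most tags lay elsewhere. Ranked by total tags among 14784 control genes with a peak, Jph2 stood at 37 and Jph1 at 64, Trdn and Cacna1s followed at 741 and 774, and Cacnb1 was last of the members at 2775.

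Per kb, the groups mostly overlapped at the start peaks. Density means tags, plus 0.5, per kb of a peak and per 10000000 tags of its library. It was had per library by sharing each peak's pooled tags between the libraries of a group. At 2 of the 8 start peaks, both detrained values were under both control values (Jph2 and the outer start of Cacnb1), and at 0 they were over both. Of the start peaks of all 11617 genes compared, 29.8% were lower in this sense and 23.6% higher. The median log2 ratio of detrained over control was -0.055 over the members and -0.028 over all genes. In pooled tags per peak, 7 of the 8 start peaks were lower in detrained mice, all but that of Cacng1, with a median of -0.16, against 57.95% of all genes and -0.043. These values depended on each control library. Without C2, 6 start peaks were lower and 0 higher, and without C3, 2 were lower and 5 higher, with a median of 0.12. Without Ex2, 2 were lower and 2 higher. With 1 library left out, the groups come apart more readily at any peak, and no share over all genes was formed for these counts. Because the authors normalized the tables separately, no test between groups was made, and 2 libraries against 2 could not give a two-sided exact permutation p under 0.333.

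**Figure D2:**
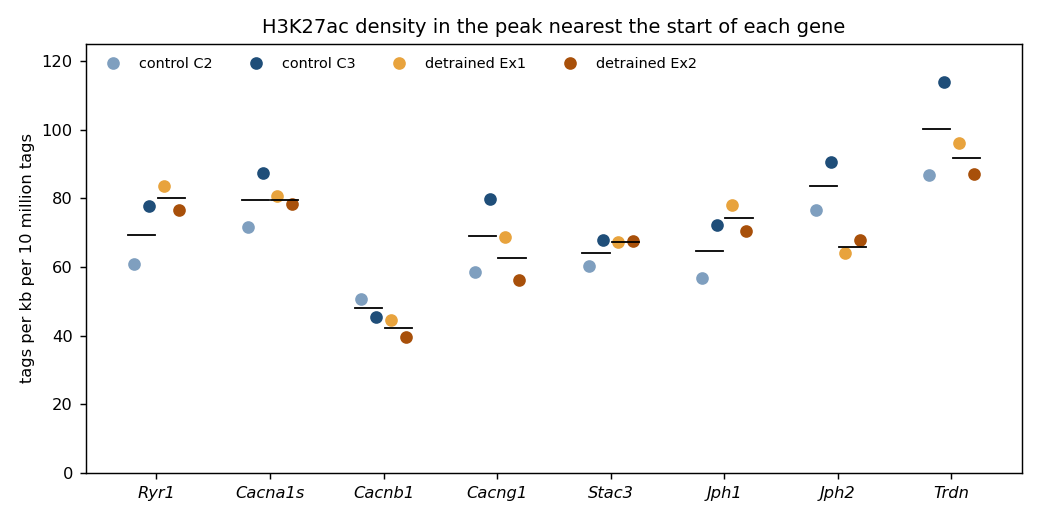
H3K27ac density (y axis, tags per kb per 10000000 tags) in the peak nearest the start of each gene (x axis), with 1 point per library and a black line at each group's mean. Jph2 and Cacnb1 are the genes at which both detrained points lie below both control points, and control C3 exceeds C2 at all genes but Cacnb1.

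Ryr1 encodes the calcium release channel of the sarcoplasmic reticulum. Its start peak, chr7:29118672-29126593 in the control list, had a density of 60.9 in C2 and 77.8 in C3, against 83.5 in Ex1 and 76.7 in Ex2. Ex2 lay between the control libraries, so the groups overlapped, with a log2 ratio of 0.22. The control peak was 7921 bp long and the detrained list held it as a shorter peak of 5547 bp and a small one of 625 bp. Over both, Ryr1 held 481.8 and 616.0 tags per 10000000 in control and 476.0 and 439.3 in detrained libraries. Its summed tags were thus lower in detrained mice while its tags per kb of covered length were not, at 69.2 and 74.0.

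Cacna1s, Cacnb1 and Cacng1 encode the pore and voltage-sensing, the beta and the gamma subunit of the muscle dihydropyridine receptor. The Cacna1s start peak, chr1:136051647-136054914, had densities of 71.7 and 87.3 in control and 80.8 and 78.4 in detrained libraries. Both detrained values fell between the control values, and the log2 ratio was 0.0087. Most Cacna1s tags lay in a peak of 12832 bp within the gene, centred 10.2 kb from the start. There the control libraries had 56.8 and 70.0 and the detrained libraries 60.6 and 56.1, which again overlapped.

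Beyond this peak the lists differed. A control peak at chr1:136075493-136078636, intronic and 24.2 kb from the start, held 97.1 pooled tags per 10000000 (95% exact Poisson interval 88.1 to 106.7, counting error only) and no detrained peak overlapped it. Of the 13797 control peaks with at least as many tags, 75 (0.544%) had no detrained overlap. A detrained peak further in, at chr1:136088759-136091002, held 40.1 tags (interval 34.3 to 46.5) and had no control overlap, as did 3.35% of the detrained peaks at least as strong. A peak missing from a list fell short of the authors' thresholds there, and tags outside listed peaks were not analysed here.

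Cacnb1 had H3K27ac over 2 start sites, in separate peaks. In each library the inner start was the denser one. In control mice it had 64.4 in C2 and 72.7 in C3, where the outer start had 50.7 and 45.5. In detrained mice the inner start had 66.5 in Ex1 and 68.5 in Ex2, and the outer start 44.6 and 39.7. The ratio of inner to outer density averaged 1.51-fold, a log2 difference of 0.60 ± 0.19 (SD, n = 4 libraries, higher in 4 of 4), with an exact two-sided sign-flip permutation p = 0.125, the smallest that 4 pairs allow. The sequence of the inner start above held an E-box and no GC box, and its control peak was longer, 5517 against 2077 bp. Whether either bears on density was not tested. Between groups the outer start was lower in both detrained libraries (log2 ratio -0.19) and the inner start overlapped (-0.021).

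At Cacng1 the start peak, chr11:107712953-107717776, had 58.5 and 79.7 in control and 68.8 and 56.3 in detrained libraries, so Ex1 lay between the control libraries and Ex2 just below C2. The densest of its other peaks, at -14.5 kb, had 48.4 and 62.3 in control and 61.8 and 53.3 in detrained libraries, which overlapped. The peak at the 3′ end of the gene, 13.4 kb from the start, had 33.1 and 34.5 in control and 41.8 and 40.6 in detrained libraries. Both detrained libraries were denser there, but the peak was shorter (1442 against 2440 bp) and its tags fewer (59.1 against 82.1 per 10000000).

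Stac3 encodes an adaptor that the dihydropyridine receptor needs for its coupling to the release channel. Its start peak, chr10:127499617-127503144, had densities of 60.4 and 67.9 in control and 67.2 and 67.6 in detrained libraries, and the groups overlapped. Its other peaks lay upstream in introns of the neighbouring gene R3hdm2. The strongest, centred at -10.7 kb, had 47.4 and 51.9 in control and 53.5 and 50.1 in detrained libraries. The groups overlapped there too, whereas 2 weaker upstream peaks, of 52.7 and 9.73 pooled tags per 10000000, were listed in control mice only and held 12.1% of the gene's control tags. Of the control peaks with at least 52.7 tags, 2.85% had no detrained overlap.

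Jph1 and Jph2 encode junctophilins, which tether the sarcoplasmic reticulum to the tubule membrane. Jph2 had the strongest H3K27ac of the 8 genes in the control list. A single peak of 26353 bp, chr2:163373698-163400051, ran from its promoter into the gene and ranked 29 of all control peaks by tags. Its density was 76.7 in C2 and 90.7 in C3 against 64.1 in Ex1 and 67.8 in Ex2. The detrained values were under both control values, with a log2 ratio of -0.34 beside a difference of 0.24 between the control libraries. Without C3 the ratio was -0.22. The deposited library values were regularized, as described under processing, which lessens differences between libraries of a group. The detrained peak was of similar length, 25703 bp, and held 1696 pooled tags per 10000000 (interval 1658 to 1735) against 2204 (interval 2160 to 2248). It ranked 53 in its list.

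The distal Jph2 peaks lay on the same side. In the peak centred 36.2 kb into the gene, the control libraries had 54.0 and 69.6 and the detrained libraries 43.8 and 44.8. The ratio here, -0.47, was the lowest of all shared member peaks, although the detrained peak also took in the area of a second control peak, which at 62.1 pooled tags per kb was the densest away from the start, at 43.3 kb. In tags per peak the ratio was 0.31, and without C3 the ratio per kb was -0.29. In the peak at 51.7 kb, the values were 37.4 and 52.5 in control against 36.9 and 36.9 in detrained libraries. C2 stood close to the detrained libraries there, and without C3 the ratio moved from -0.26 to -0.018. Merged into regions, all 4 regions of Jph2 present in both lists had fewer tags and fewer tags per kb in detrained mice. Of the 30 such regions of all members, 23 had fewer tags and 16 fewer tags per kb, and no share over all genes was formed. Of the 8 genes, Jph2 had the lowest ratio both of total tags, -0.37, and of tags per kb of covered length, -0.34, and its total without C3 was -0.21. The difference between C2 and C3 in its total was 0.32.

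Jph1 spread its acetylation over the most peaks. The start peak, chr1:17094096-17107630, had 56.7 and 72.3 in control and 78.1 and 70.6 in detrained libraries and was split into 2 peaks in the detrained list. The densest Jph1 peak of the control list lay upstream, centred at -22.6 kb, with 74.2 and 93.7 in control and 75.8 and 68.4 in detrained libraries. Groups overlapped at both. Within the gene, 3 peaks centred 110.5, 87.5 and 56.7 kb from the start were denser in both detrained libraries. The largest difference was at 56.7 kb, with 34.2 and 35.2 in control and 47.0 and 43.4 in detrained libraries. In tags per peak the direction turned at 110.5 kb (-0.13) and at 56.7 kb (-0.093), where the detrained peaks were shorter. The farthest peak, 181.1 kb downstream and beyond the gene, had 51.5 and 55.2 in control and 48.9 and 42.8 in detrained libraries, lower in both. Of the control Jph1 peaks, 7 had no detrained overlap, each with at most 22.4 tags, and together they held 2.61% of the gene's tags.

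Trdn encodes triadin, which anchors calsequestrin to the release channel in the junctional membrane. Its start peak, chr10:33081289-33087457, was the densest start peak of the 8 genes in every library, at 86.7 and 114.0 in control mice and 96.1 and 87.2 in detrained mice. Both detrained values lay between the control values. The next peak, centred 7.55 kb from the start, gave the highest ratio of the shared member peaks, 0.43, with 35.0 and 43.7 in control and 54.3 and 51.6 in detrained libraries. That detrained peak was 3058 bp long where the control peak was 5994 bp, and its tags were fewer, 161.5 against 235.5 per 10000000. At 14.9 kb the libraries overlapped again, with 34.9 and 43.3 in control and 36.3 and 35.0 in detrained mice. They did so as well in the intergenic peak at -56.2 kb, with 36.6 and 46.0 in control and 35.1 and 38.2 in detrained mice.

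Across the 8 genes, 25 pairs of peaks covered 50% or more of each other, out of 26432 such pairs in the whole lists. Smaller overlaps with further peaks were set aside, as at the Ryr1 start, the Jph1 start, Jph1 11.9 kb and Jph2 36.2 kb. Merged with its further peak, the Jph1 start had a log2 ratio of 0.019 per kb and -0.082 in tags, against 0.21 and -0.42 as a pair. The region holding the Jph1 11.9 kb peak had 0.11 in tags, against -0.42 for the pair. Both detrained libraries were lower at 5 of the 25 and higher at 5, and the groups overlapped at 15. In all pairs 27.2% were lower and 21.3% higher. The median log2 ratio was -0.021 in the members and -0.026 in all pairs. No member pair differed 2-fold, as 0.0757% of all pairs did with the groups not overlapping. These counts rested on single control libraries. Without C2, 17 of the 25 were lower and 5 higher, and without C3, 5 were lower and 15 higher.

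The control libraries themselves differed at these genes. C3 was above C2 at 24 of the 25 member pairs, with a median log2 difference of 0.30, against 61.3% of all pairs and 0.067. Ex2 was above Ex1 at 7 of the 25, against 37.8% of all pairs. The summed fibre and endothelial markers given above were also higher in C3 than in C2, with median differences at their shared peaks of 0.33 and 0.27, and the part of this difference in the results was not tested. Median member density was 51.5 in C2 and 62.3 in C3, and Ex1 at 54.3 and Ex2 at 51.6 fell between them.

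**Figure D3:**
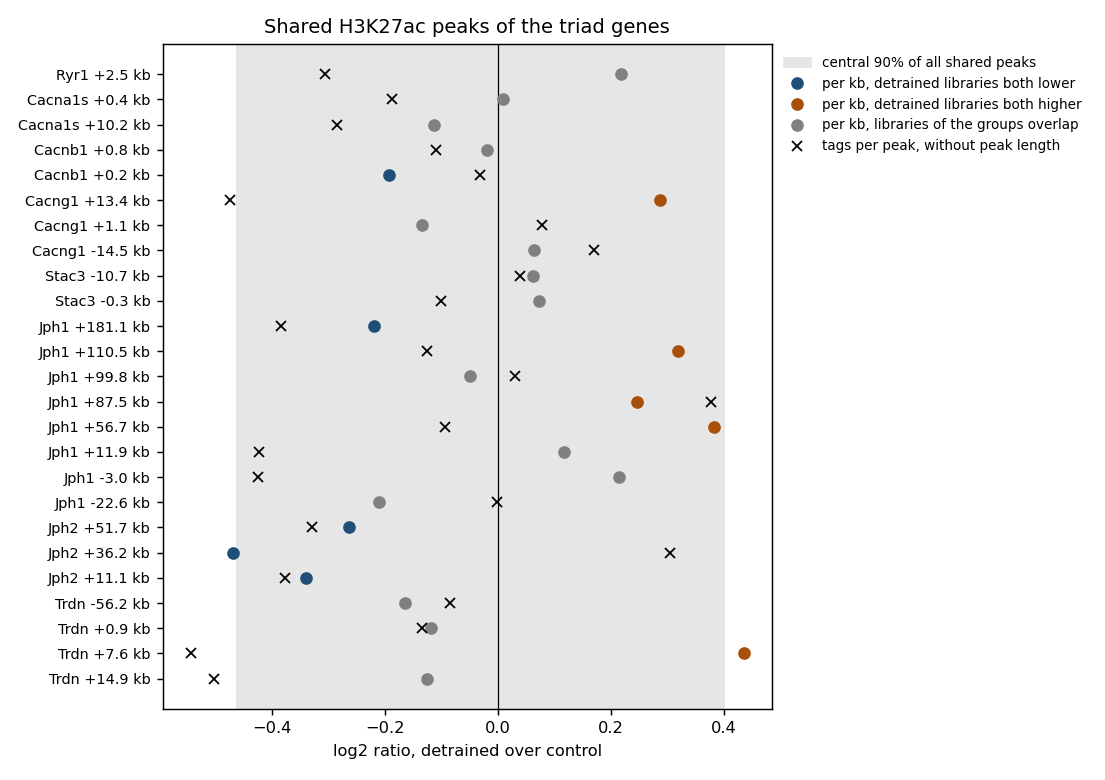
Log2 ratio of detrained over control (x axis) for the 25 matched peaks, named by gene and distance from the start (y axis), per kb (dots, coloured by whether the libraries overlap) and as pooled tags per peak (crosses), over the central 90% of all pairs (grey). Dots fall between -0.47 and 0.43 on both sides of 0, and crosses are below 0 at 19 of 25 peaks.

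Peak length changed the picture. Measured as pooled tags per peak and not per kb, 19 of the 25 pairs were lower in detrained mice, with a median log2 ratio of -0.13, where 53.03% of all pairs were lower and their median was -0.021. By library, 15 pairs were then lower in both detrained libraries and 2 higher, against 28.8% and 24.7% of all pairs. Member peaks were shorter in the detrained list by a median of -0.089 on the log2 scale, and all pairs were longer by 0.014.

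Summed over all peaks of a gene, tags were lower in both detrained libraries at 6 of the 8 genes and higher at 0, where 35.2% of 13524 genes were lower and 24.3% higher. Exceptions were Cacng1, with 550.5 and 713.7 in control and 690.0 and 590.8 in detrained libraries, and Jph1, with 2702, 3193, 2914 and 2675 in the same order. The sums were 1052 and 1288 against 970.9 and 900.2 at Cacna1s, and 1058 and 1350 against 1038 and 966.6 at Trdn. Cacnb1 had 460.2 and 495.5 against 448.3 and 447.2, and Stac3 496.7 and 537.3 against 474.8 and 454.5. At Jph2 the sums were 3188 and 3984 against 2713 and 2814. The gap between groups was larger than that between C2 and C3 at Cacna1s (log2 -0.32 and 0.29), Stac3 (-0.15 and 0.11) and Jph2 (-0.37 and 0.32), and smaller at Ryr1, Cacnb1 and Trdn. Regularized library values understate the gap between C2 and C3. Without C3 the ratio was -0.17 at Cacna1s and -0.097 at Stac3. The Stac3 sum was -0.030 over matched peaks alone.

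The covered length was shorter in detrained mice at all 8 genes, by between -0.015 at Cacnb1 and -0.40 at Stac3 on the log2 scale, with -0.029 at Jph2, where 52.3% of all genes were shorter. Per kb of covered length, the ratio was negative at 3 genes, Jph2 (-0.34), Cacna1s (-0.11) and Cacnb1 (-0.078), and positive at the other 5, up to 0.25 at Stac3, where it was negative at 51.7% of all genes. All members together had 9989 tags per 10000000 in C2 and 12177.4 in C3, against 9724 in Ex1 and 9287 in Ex2. The detrained libraries were below C2 by less than C2 was below C3, and without C3 the log2 ratio of the whole sum moved from -0.21 to -0.072.

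**Figure D4:**
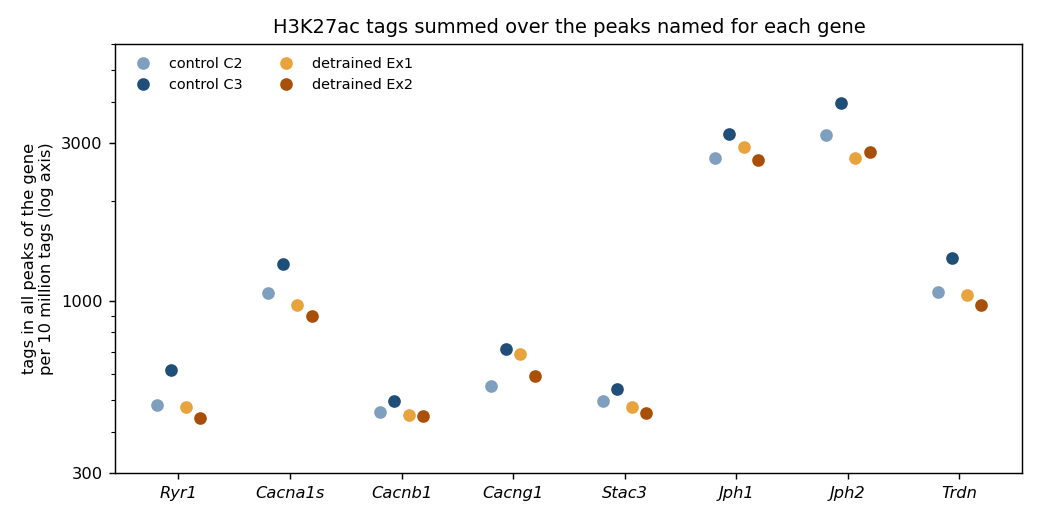
Tags per 10000000 summed over all peaks named for a gene (y axis, log scale), with 1 point per library and genes on the x axis. Jph1 and Jph2 stand above the other members, and the detrained points are lowest at 6 genes, with Cacng1 and Jph1 overlapping.

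Peaks present in one list only carried little of the signal. Of the 43 control members, 11 had no overlap with a detrained peak, and of the 39 detrained members 5 had none with a control peak. In the whole lists these shares were 27.9% of control and 18.0% of detrained peaks. Such peaks held 2.22% of the members' control tags and 0.997% of their detrained tags. The intronic Cacna1s peak described above was the strongest of them.

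Most other genes of the triad and of calcium handling were above the median gene in total tags. In a list of 14 triad partners, 13 had a peak in the control list and 14 in the detrained list, with a median of 632 and 530 total tags per 10000000. The 6 genes of calcium uptake and store entry all had peaks, with medians of 1353 and 1196, and the 8 members had 899.8 and 786.5, where all genes with a peak had 162.2 and 163.6. In control mice 4 of these 20 partner, uptake and entry genes were under that median, namely Mtm1 (93.9), Mtmr14 (97.3), Sln (5.88) and Hrc (0). By tags in the peak nearest the start, the strongest of these 36 other genes in control mice were Tmem38a, a counter-ion channel of the reticulum, with 1974, the calcium pump Atp2a1 with 1700, and sarcalumenin (Srl), a calcium-binding protein of the reticulum, with 1394. In detrained mice they were Srl with 1997, Atp2a1 with 1704 and Tmem38a with 1219. Hrc, a calcium-binding protein of the reticulum, had no control peak named for it because the overlapping control peak was assigned to Trpm4. At start peaks in both lists, 3 of 10 triad partners were lower in both detrained libraries and 3 higher, and of the 6 uptake and entry genes 0 were lower and 4 higher, where 29.8% of all genes compared were lower and 23.6% higher. In pooled tags per peak, 5 of these 7 higher genes had fewer detrained tags and 2 of the 3 lower genes had more. Cav3 was the widest apart per kb, at 0.94, and had -0.82 in tags, as its start peak was 7.01 kb long in control and 2.07 kb in detrained mice.

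Paralogues of these genes mostly had low totals. Of 16 such genes, 12 had a control peak and 11 a detrained peak, their median total was 57.3 and 61.8 tags, and peaks covered a start at 8 and 4 of them. In control mice 11 were under the median gene, but Tmem38b (672.8), Pln (641.3) and Atp2a2 (531) exceeded Cacnb1 and Stac3 among the members, and Tmem38b and Pln exceeded Ryr1 and Cacng1 too. Ryr3, Cacng6, Stac2 and Jph3 had no peak in either list, and Cacna1d had none assigned in detrained mice, where an overlapping peak was assigned to 4831407H17Rik. The lowest nearest-start peaks were those of Cacna1d (5.66 tags), sarcolipin (Sln, an inhibitor of the calcium pump, 5.88) and Stac (8.60) in control mice, and of Stac (7.41), Sln (11.6) and Cacnb2 (12.7) in detrained mice. Ryr2, the cardiac release channel, had 1 peak, 30.0 kb from its start, with 32.8 tags in control and 29.4 in detrained mice, whereas Ryr1 had 548 and 457.

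**Figure D5:**
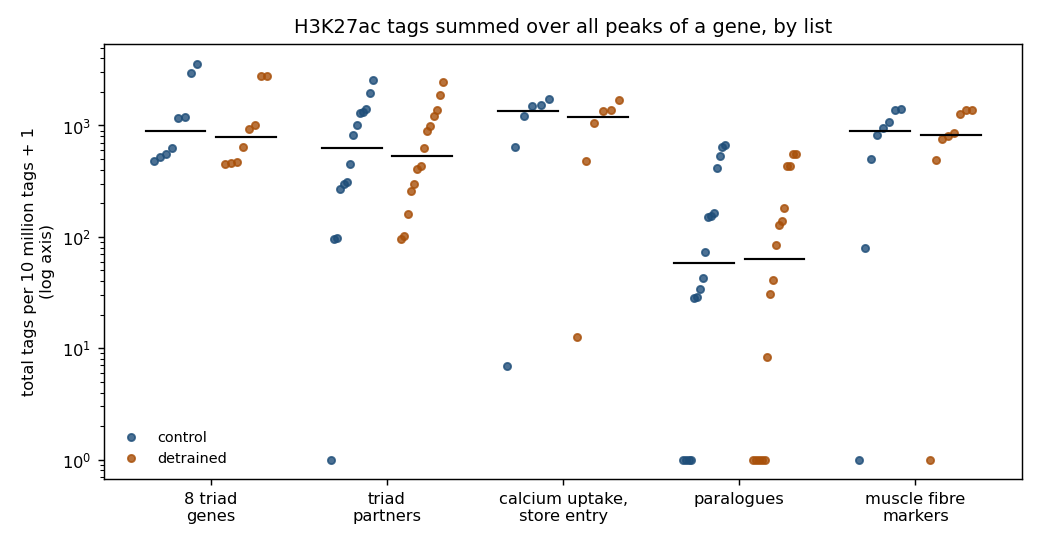
Total tags per 10000000 over all peaks of a gene, plus 1 (y axis, log scale), for the 8 triad genes, 14 triad partners, 6 calcium uptake and store entry genes, 16 paralogues and 8 muscle fibre markers (x axis), with 1 point per gene and list and a black line at the median. The 8 triad genes lie between 447.7 and 3581, and 4 control and 5 detrained paralogues sit at the floor, having no peak.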

How the data were processed

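The authors aligned H3K27ac ChIP-seq reads to mm10 with Bowtie (version 1.2 in the submitters' processing notes) and used HOMER, with at most 1 tag kept per position, to call broad peaks on both H3K27ac libraries of a group against its input. They deposited 1 table per group. The deposited signal of a peak is its pooled tags per 10000000. The deposited log2 value of each library is regularized by the authors through DESeq2 and shrunken for weak peaks, so the libraries of a group differ by less than their tags did. The authors' deposited log2 fold over input and p-value of a peak served only to describe or filter it. Columns without a sample or group numbered 0.

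Tags of a library were estimated from the pooled tags, in proportion to its total multiplied by its unlogged value. Totals were 20805019 to 22400894 tags per library, and the intervals given for peaks cover counting error only. Control columns carry the names C2 and C3, which the labels do not, and were placed in the group and not with a numbered mouse. Starts came from RefSeq and gene bodies from GENCODE on GRCm38. In the tables, 93.3% and 93.2% of distances fitted the RefSeq start within 5 bp.

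The 8 genes, the other lists and the named peaks (start peak, densest distal peak, largest ratio, and the 3 highest and 3 lowest other genes) were chosen with earlier results of these data known. Groups were compared by whether both libraries of one lay beyond both of the other. The steps were tested on simulated data. Tools were pandas 2.3.3 and numpy 2.4.6 under Python 3.11.15, with plots by matplotlib 3.10.9.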

Additional observations from a re-analysis of the deposited data

How the results depend on the processing

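No paired analysis was possible because columns of control mice carry the numbers 2 and 3, those of detrained mice 1 and 2, and nothing in the labels ties animals of the groups together. The number of member peaks was 29 in each list for peaks at least 4-fold over input with an adjusted p under 0.001, and 30 and 31 within 50 kb of a start. With promoters taken as peaks centred within 1000 bp of a start, the members had 5 in control and 4 in detrained mice. In tags per peak, the shared peaks with groups apart numbered 17, of which 15 were lower and 2 higher, and of the 10 peaks apart per kb the direction turned at 5, Cacng1 13.4 kb (-0.47), Jph1 110.5 kb (-0.13), Jph1 56.7 kb (-0.093), Jph2 36.2 kb (0.31) and Trdn 7.6 kb (-0.54). It also turned at 7 of the 15 peaks whose groups overlapped per kb, 5 of them to lower. With libraries scaled to tags in listed peaks, 4 were lower and 10 higher. With 80% of each peak covered, 5 of 16 were apart, 1 of them higher. Leaving out C2 gave 22 apart (17 lower) and leaving out C3 gave 20 (15 higher). Without Ex1 9 were lower and without Ex2 8 were higher. With 1 library left out, the groups come apart more readily at any peak, and no share over all pairs was formed. Leaving out 1 library in turn gave 14 to 22 apart, with 5 to 17 lower and 5 to 15 higher, and a median ratio of -0.12 to 0.088 at shared peaks, -0.12 to 0.12 at start peaks and -0.36 to -0.072 for summed tags. Merging overlapping peaks into regions, added after seeing the data, gave a median of -0.014. The tags summed over all 8 genes kept their direction under every alternative run, but the sum of Cacng1 turned from 0.027 to -0.16 without C2 and -0.085 without Ex1, and that of Jph1 from -0.073 to 0.047 without C3. The median ratio of shared peaks changed sign with the scaling, to 0.030 for tags in listed peaks and 0.0053 with the median of all pairs set to 0.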
